A study of Mus musculus with 16 samples.

Results

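The collagen genes were taken by name: every gene whose symbol reads Col, a number, the letter a and a number was kept, which gave 44 of the 47729 genes with values. They were followed in 16 libraries from mouse cochleae at postnatal day (P) 4. Control mice were GLAST-CreERT/+; Rpl22 HA/+, and the DTR mice were Lgr5 DTR/+; GLAST-CreERT/+; Rpl22 HA/+, so that all 16 libraries came from animals with the Cre and the tagged ribosomal protein. In these RiboTag animals tamoxifen-induced Cre under the GLAST (Slc1a3) promoter puts an HA tag on ribosomes, in the greater epithelial ridge (GER) and inner phalangeal cells among others, and an anti-HA immunoprecipitation (IP) recovers the RNA bound to them. The Lgr5 knock-in lets diphtheria toxin (DT) kill LGR5+ supporting cells. By the study's methods both genotypes received tamoxifen and DT at P1, whereas the sample labels call the control untreated and the other group DTR treated. Each replicate was a pool of 8 cochleae from 4 mice, from which the spiral ganglion, lateral wall and Reissner's membrane had been taken away. From each pool 5% of the homogenate was kept as input, a sample of all tissue RNA, and 95% went to the IP. With 4 pools per genotype this gave 4 libraries of input and 4 of IP from each genotype. In such bulk samples fewer cells of a type and less RNA per cell cannot be told apart.

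Collagens are proteins whose 3 alpha chains wind into a triple helix, and most are secreted, while some are transmembrane. Fibrillar collagens form the ropes of cartilage, bone and connective tissue. The collagens called FACIT, short for fibril-associated collagens with interrupted triple helices, sit on those ropes, while type IV collagen forms the sheet of basement membranes. In the cochlea types II, IX and XI build the spiral limbus and the fibrils of the tectorial membrane, the gel that lies over the hair cells, and defects in these chains and in the type IV chains are known causes of hearing loss.

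Libraries held between 28089836 and 41966310 reads on genes, so that 3 reads were worth 0.0715 to 0.107 CPM, the count of a gene scaled to a fixed library total. The labels were first checked on the driver genes. Lgr5 was at 63.3 ± 3.03 CPM in control inputs, 36.6 ± 3.99 in control IPs, 15.9 ± 3.69 in DTR inputs and 9.38 ± 1.40 in DTR IPs (mean ± SD, n = 4 here and below). It fell by 1.93 on the log2 scale in DTR IPs against control IPs (adjusted p = 3.47e-08). Slc1a3 was not called between any of the groups compared, with means of 215 to 281 CPM. Igf2, an imprinted growth factor gene, was at 326 ± 14.9 CPM in control inputs and 3694 ± 525 in control IPs. For the collagens 2 libraries were often the lowest of their group: control IP replicate 3 was the lowest of the control IPs for 28 of the 41 collagen genes that could be tested, and its total collagen was 21177 CPM against 27212 to 33298 CPM in the other control IPs. DTR input replicate 3 was the lowest of the DTR inputs for 27 of the 41, with a total of 32637 CPM against 31591 to 39106 CPM in the others. Results that rest on either library are given with and without it.

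A handful of genes made up most of the collagen RNA. Collagen genes together took 3.38 ± 0.31% of the reads in control inputs, 2.73 ± 0.495% in control IPs, 3.5 ± 0.352% in DTR inputs and 3.52 ± 0.383% in DTR IPs. Col2a1, Col9a1, Col9a2, Col9a3, Col11a1 and Col11a2, the chains of types II, IX and XI, held 70.9% to 77.4% of all collagen CPM in control inputs and 80.9% to 85.5% in control IPs. Col2a1 was the most abundant collagen gene in all 16 libraries and the most abundant of all genes in the 8 inputs. At the other end Col6a4, Col6a5 and Col10a1 did not reach 0.5 CPM in all replicates of any group, and they were left out of the tests.

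Per kb of exon, which allows levels of different genes to be compared, the order in control inputs was Col2a1 (1229 CPM per kb), Col9a1 (1161), Col9a2 (931), Col9a3 (850.2), Col3a1 (263) and Col1a2 (191). Values of Col2a1 and Col9a1 overlapped between libraries, as did those of Col9a2 and Col9a3, whereas every library of Col9a3 lay above every library of Col3a1. Then followed Col11a2 (164 CPM per kb), whose libraries overlapped with those of Col1a2 and Col18a1, and then Col18a1 (135), Col4a1 (83.3) and Col4a2 (57.0), which did not overlap with one another. The remaining 34 genes lay between 46.8 CPM per kb for Col11a1 and 0.000709 for Col6a4. Chains that are made into the same trimer did not all have like levels. Col1a2 exceeded Col1a1, its partner in type I collagen, by 16.6 times per kb in control inputs. Whether the way reads were assigned to these genes shaped that ratio was not tested, and Col1a2 overlaps Gm43921 on the same strand. Col5a2 and Col5a1 of type V collagen stood at 1.03 times and Col4a1 and Col4a2 of type IV at 1.46 times.

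**Figure D1:**
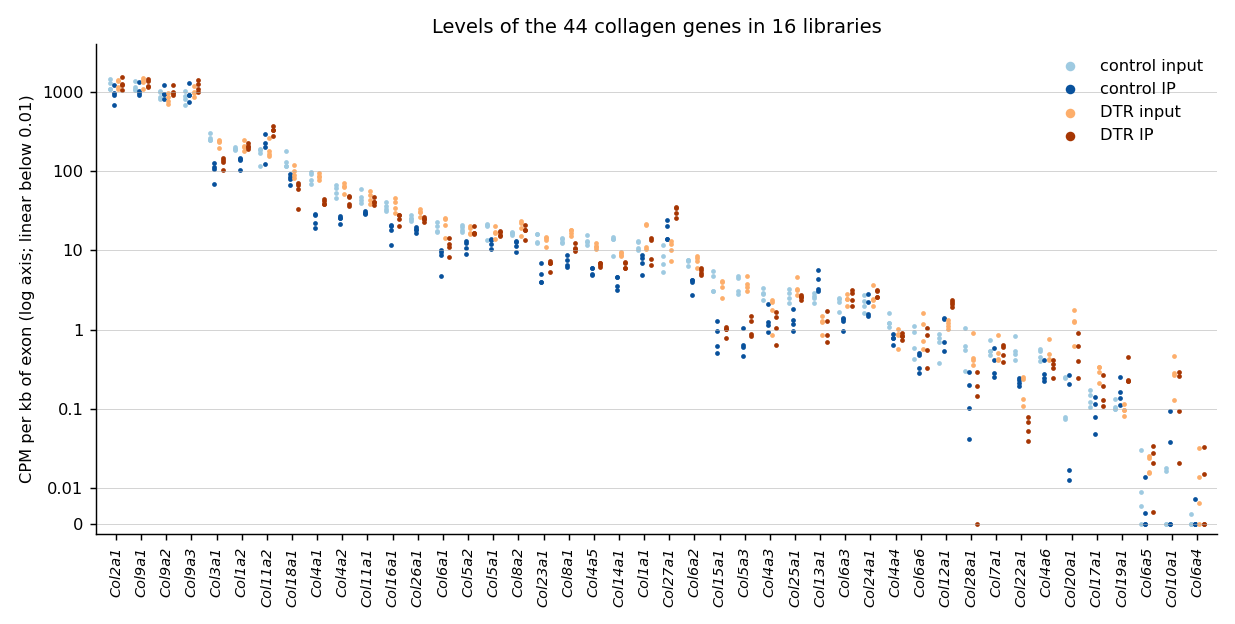
Level of each of the 44 collagen genes as CPM per kb of exon (log axis, linear below 0.01), ordered by the mean of the control inputs; each point is a library, coloured by group. Col2a1 and the 3 type IX chains stand above all others, and the 3 genes at the right did not pass the filter on low values.

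The comparison of control IP with control input asks which collagen transcripts were richer or poorer on the tagged ribosomes than in the whole undamaged tissue. Most were poorer. Of the 41 genes tested, 23 were lower and 1 was higher, where 12.3% of all 16994 genes tested were called lower and 11.8% higher. A gene was called when its adjusted p was under 0.05, its fold change above 1.5 and no library of one group overlapped with the other (limma, all on the quantile-normalized scale). The median log2 fold change was -0.645 over the collagen genes and -0.0012 over all genes. Without control IP replicate 3 the number lower was 19. Stricter criteria, a log2 fold change of at least 1 and a gap of 1.5 times between the groups, are those the study set for DTR IPs against control IPs. It set a higher fold limit for IP against input, which was not applied here. By these stricter criteria 0 were higher and 9 lower, beside 4.12% and 3.56% of all genes. After damage, in DTR IPs against DTR inputs, 11 of 41 were lower and 3 higher, beside 10.3% and 11.5% of all genes, and the median was -0.447 beside -0.0271. Without DTR input replicate 3 the same rule for calls gave 13 lower, beside 1938 of the 17099 genes tested in that fit. With all libraries, 18 were lower by adjusted p alone, beside 20.5% of all genes. The stricter criteria left 1 higher and 3 lower, beside 3.67% and 2.11%. All 11 genes called lower in DTR IPs were also among the 23 of the control IPs, which is 47.8% of the longer list. This overlap was not set beside that of all genes, so whether it is particular to the collagens was not tested.

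Col5a3, a minor chain of type V collagen, fell most in control IPs. Its control inputs read 30.5, 32.7, 20.8 and 19.4 CPM and its control IPs 4.16, 7.1, 4.38 and 3.14 CPM (replicates 1 to 4 in order, here and below). The DTR inputs held 32.7, 25.8, 20.8 and 23.4 CPM and the DTR IPs 10.1, 5.98, 5.73 and 8.71 CPM. Every IP was below every input in both genotypes, and Col5a3 fell by 2.28 ± 0.213 (log2 fold change ± SE) in control IPs and by 1.71 ± 0.213 in DTR IPs (adjusted p = 1.45e-07 and 5.54e-06).

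Col15a1, a chain of the basement membrane zone around vessels and muscle, came next there and fell most in DTR IPs. It read 35.3, 30.0, 19.7 and 19.6 CPM in control inputs and 8.16, 6.2, 3.23 and 3.99 CPM in control IPs. In the DTR mice the inputs read 25.6, 26.2, 16.04 and 22.1 CPM and the IPs 6.91, 4.98, 6.49 and 6.51 CPM. Again no IP reached an input, and the log2 fold changes were -2.14 ± 0.226 and -1.78 ± 0.226 (adjusted p = 6.25e-07 and 7.01e-06). The other multiplexin, Col18a1, whose C-terminal fragment is endostatin, fell by 0.625 in control IPs and by 0.709 in DTR IPs. Its call in controls was lost without control input replicate 3 (-0.486) and without control IP replicate 3 (-0.541), and that in DTR mice without DTR IP replicate 3 (-0.465).

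Of the 6 type IV chains 5 were lower in control IPs, beside 12.3% of all genes, and Col4a6 was not called (log2 fold change -0.55, adjusted p = 0.037, under the fold limit). In DTR IPs against DTR inputs 2 of 6 were lower (Col4a1 and Col4a5), beside 10.3% of all genes. Col4a1 read 684, 574, 722 and 507 CPM in control inputs and 214, 207, 142 and 166 CPM in control IPs. The DTR inputs held 635, 653, 574 and 704 CPM, and the DTR IPs 288, 286, 329 and 313 CPM. The inputs of both genotypes overlapped, while the IPs formed 2 separate sets, the DTR IPs above the control IPs. Col4a1 fell by 1.66 ± 0.131 in control IPs and by 0.985 ± 0.131 in DTR IPs (adjusted p = 1.99e-08 and 1.19e-05). Col4a2, its partner in the trimer, fell by 1.11 ± 0.133 in control IPs (adjusted p = 2.9e-06). Its DTR IPs were also below its DTR inputs in CPM, but the log2 fold change of -0.444 was under the fold limit. The ratio of Col4a1 to Col4a2 CPM was 1.65 ± 0.0327 in control inputs and 1.1 ± 0.132 in control IPs, and 1.57 ± 0.0707 and 1.08 ± 0.0848 in DTR inputs and DTR IPs. The call of Col4a4 in control IPs, a log2 fold change of -0.64, was lost without control input replicate 4 (-0.513) and without control IP replicate 1 (-0.542).

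The 2 genes lie head to head on chromosome 8, Col4a1 on the minus strand at chr8:11198423-11312826 and Col4a2 on the plus strand at chr8:11312805-11449287 (GRCm38). Their 5′ ends share 22 bases, and the stretch is shown because both chains were lower in control IPs than in control inputs and both were higher in DTR IPs than in control IPs. It is given 5′ to 3′ on the plus strand at chr8:11312805-11312826, from RefSeq (GRCm38.p6), with a GC box in capitals.
Col4a1 and Col4a2, shared 5′ ends: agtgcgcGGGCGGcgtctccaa
The GC box (GGGCGG, searched on both strands) occurred in 23 of the 38 promoter windows that matched 35 of the collagen genes, or 60.5%, and in 35.7% of all 32851 windows of 300 bases. CCAAT occurred in 34.2% of the collagen windows and 37.4% of all, and TATAAA in 13.2% and 13.6%. The 68 matches in collagen windows held 2 overlapping pairs, GC boxes of Col6a2 and of Col8a2, and matches in the shared stretch counted for both genes. The other type IV pairs are also head to head, with 71 bases between the 5′ ends of Col4a4 and Col4a3 and 1308 bases between those of Col4a6 and Col4a5. As the strand setting of the counting is not given in the sources used here, reads in such shared stretches cannot be told apart.

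Among the FACIT collagens Col14a1, a chain of dense connective tissue, fell most in control IPs. It read 97.9, 98.5, 104 and 60.0 CPM in control inputs and 32.2, 32.1, 22.5 and 25.2 CPM in control IPs, a log2 fold change of -1.64 ± 0.145 (adjusted p = 7.17e-08). In DTR mice the inputs read 64.3, 66.2, 61.5 and 59.8 CPM and the IPs 48.1, 42.4, 50.2 and 41.9 CPM. These were also separate, but the log2 fold change of -0.491 ± 0.145 was under the fold limit. Col16a1 and Col22a1 were the other FACIT genes lower in control IPs, by 0.968 and 1.03. The type IX chains, by contrast, were not called in any comparison. Col9a1 read 5534, 5302, 5810.1 and 6890.0 CPM in control inputs and 5179.6, 4827, 4637 and 6796 CPM in control IPs, and 5524, 6791, 7470.1 and 7163 CPM in DTR inputs and 5901, 6843, 5974 and 7251 CPM in DTR IPs. Col9a2 read 2538, 2689, 3192 and 3105 CPM in control inputs and 2866, 2868, 2547 and 3822 CPM in control IPs, and 2159, 2671, 2385 and 2962 CPM in DTR inputs and 2820.1, 3059, 2958 and 3798 CPM in DTR IPs. Col9a3 read 2649.8, 3115, 3423 and 3916 CPM in control inputs and 3479, 3514, 2880.1 and 4919 CPM in control IPs, and 3349.8, 3737, 3849.9 and 4563 CPM in DTR inputs and 4800.5, 4146, 3797 and 5473 CPM in DTR IPs. For each of these chains the IPs overlapped with the inputs of the same genotype.

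Of 11 fibrillar collagens 6 were lower and 1 higher in control IPs, beside 12.3% and 11.8% of all genes. Col3a1, the type III chain of soft connective tissue, read 2949.6, 2413, 2573 and 2391 CPM in control inputs and 1246, 1108, 673 and 1035 CPM in control IPs. In DTR mice it read 2372, 2453, 1922 and 2289 CPM in inputs and 1364, 1432, 1027 and 1289 CPM in IPs. IPs lay below inputs throughout, with log2 fold changes of -1.49 ± 0.187 and -0.855 ± 0.187 (adjusted p = 5.12e-06 and 0.00138). Col1a2, of type I collagen, read 2378, 2341, 2508 and 2267 CPM in control inputs and 1803, 1736, 1265 and 1695 in control IPs, and fell by 0.639 ± 0.153 (adjusted p = 0.0026). Its fold fell under 1.5 without control IP replicate 3 (-0.543) and on CPM without quantile normalization (-0.559). Col1a1 fell by 0.712, and was not called without control input replicates 1, 2 or 4 or control IP replicates 1 or 3, with log2 fold changes of -0.742 to -0.553. Its call was also lost in edgeR (-0.642, adjusted p = 0.0678) and in limma with the length and GC correction (-0.619, adjusted p = 0.0563). Without the filter on low values limma gave an adjusted p of 0.0991. With the replicate as a block, which pairs input and IP of a pool, limma kept the call of Col1a1 (adjusted p = 4.3e-05).

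Col2a1, the main chain of type II collagen, needs its scale named. Its CPM was 9953, 10121, 13538 and 11835 in control inputs and 8941, 8442, 6285 and 11162 in control IPs, and these overlapped. In DTR mice it was 10466, 12453, 9953 and 13123 CPM in inputs and 11097, 11709, 9803 and 14093 CPM in IPs. Quantile normalization gives a library's genes the values that belong to their ranks. Col2a1 was at rank 1 among all genes in all 8 inputs and at ranks 3, 3, 5 and 3 in the control IPs, so that it was called lower there with a log2 fold change of -0.645 (adjusted p = 0.00309). On CPM without that step it was -0.402 (adjusted p = 0.133), and edgeR gave -0.322 (adjusted p = 0.133), with no call in either. Without control IP replicate 3 it was -0.574 and not called.

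Of the beaded filament chains of type VI collagen, 3 of 4 tested were lower in control IPs, beside 12.3% of all genes. Col6a1 read 99.8, 88.5, 75.4 and 77.5 CPM in control inputs and 44.5, 38.3, 20.8 and 42.4 CPM in control IPs, without overlap, and its log2 fold change was -1.25 ± 0.211 (adjusted p = 0.000115). Col6a2 (-0.949) and Col6a3 (-0.792) were lower as well, and Col6a6 was not called. Of 4 transmembrane collagens Col23a1 (-1.52) and Col25a1 (-1.03) were lower, and of the short chain collagens Col8a1 (-0.869). In DTR IPs against DTR inputs Col6a1 (-0.898), Col23a1 (-1.03), Col4a5 (-0.782) and Col8a1 (-0.639) were lower again. With the length and GC correction the fold of Col8a1 fell under 1.5 there (-0.536). In control IPs against control inputs those of Col18a1 (-0.554), Col4a4 (-0.52), Col5a2 (-0.583) and Col1a2 (-0.539) did so too.

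The chain that rose on tagged ribosomes was Col27a1, a fibrillar collagen of cartilage and of developing epithelia including the inner ear. It read 69.9, 150.2, 88.5 and 109 CPM in control inputs and 264, 314, 179 and 184 CPM in control IPs. The DTR inputs held 171, 132, 96.3 and 158 CPM and the DTR IPs 456, 335, 445 and 382 CPM. No IP overlapped with an input of either genotype, and Col27a1 rose by 1.2 ± 0.223 in control IPs and 1.63 ± 0.223 in DTR IPs (adjusted p = 0.000285 and 1.53e-05). Over both genotypes it was the 1 collagen gene called higher in IP against input, with a log2 fold change of 1.42 ± 0.158 (adjusted p = 4.99e-07), where 8.09% of all genes were called higher and 6.96% lower. In that comparison 11 collagen genes were lower. By adjusted p alone 4 were higher and 31 lower over both genotypes, beside 25.8% and 28% of all genes, and by the stricter criteria 0 were higher and 4 lower, beside 2.45% and 1.17%. Col13a1, a transmembrane collagen, was at 0.625 in control IPs and not called (adjusted p = 0.051), but it passed with the replicate number as a block (adjusted p = 0.00509).

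In the DTR pools 2 further FACIT genes rose in IPs. Col12a1, which coats type I fibrils, had DTR inputs at 16.9, 18.4, 20.3 and 15.7 CPM and DTR IPs at 36.4, 32.3, 33.8 and 29.4 CPM, a log2 fold change of 0.837 ± 0.244 (adjusted p = 0.0107). Col19a1, a rare FACIT collagen, had 0.679, 0.794, 0.562 and 0.67 CPM in DTR inputs and 1.57, 3.17, 1.59 and 1.55 CPM in DTR IPs, a log2 fold change of 1.02 ± 0.223 (adjusted p = 0.00138). In control mice Col19a1 read 0.691, 0.929, 0.725 and 0.699 CPM in inputs and 0.777, 0.96, 1.73 and 1.14 CPM in IPs. Those control libraries overlapped, and the log2 fold change was 0.405 ± 0.223. Col28a1, a collagen known from peripheral nerve, fell in both genotypes: it read 3.05, 5.21, 1.47 and 2.69 CPM in control inputs and 0.508, 1.46, 0.206 and 0.981 CPM in control IPs, and 4.52, 1.77, 2.04 and 2.19 CPM in DTR inputs and 1.45, 0.961, 0 and 0.723 CPM in DTR IPs. The log2 fold changes, on a scale with 0.5 added to the quantile-normalized CPM, were -1.42 ± 0.379 and -1.35 ± 0.379 (adjusted p = 0.00576 and 0.00824).

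**Figure D2:**
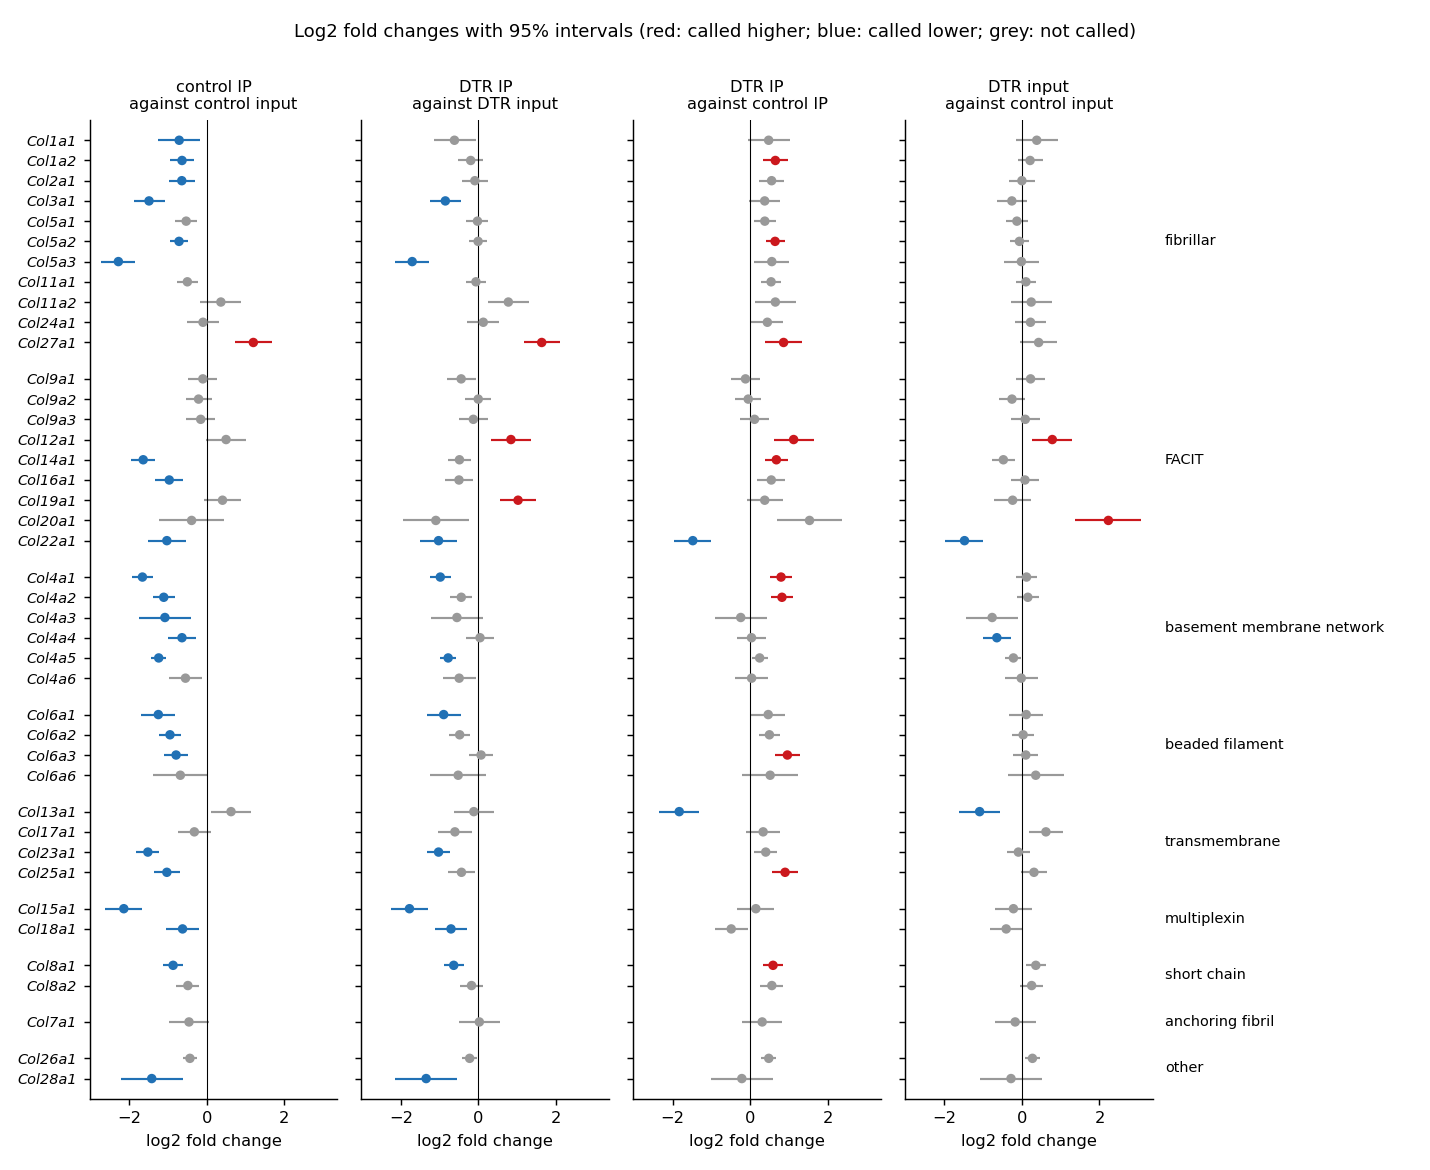
Log2 fold change of the 41 collagen genes tested in 4 comparisons, by class of collagen; points are estimates, lines 95% intervals, red marks genes called higher, blue lower and grey not called. Control IPs lie below control inputs for 36 of 41 genes, and DTR IPs above control IPs for 34 of 41.

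Genes that mark other cells moved with these collagens. In control IPs all 8 endothelial markers (Pecam1, Cdh5, Kdr and others) were lower, as were 5 of 7 pericyte markers, 6 of 7 Schwann cell markers and 8 of 9 macrophage markers, beside 12.3% of all genes. The summed endothelial level was 339 ± 25.03 CPM in control inputs, 116 ± 14.2 in control IPs, 447 ± 41.8 in DTR inputs and 181 ± 9.76 in DTR IPs, with Emcn the most abundant. Pericyte markers summed to 477 ± 32.4, 199 ± 21.6, 489 ± 69.0 and 254 ± 35.4 CPM, led by Pdgfrb, and Schwann cell markers to 3531 ± 866, 1039 ± 235, 1617 ± 289 and 703 ± 83.7 CPM, led by Mbp. No marker on these lists was at or under 3 reads in every library. Mesenchyme markers, by contrast, had sums of 3165 ± 62.0, 3246 ± 76.0, 3411 ± 392 and 3610.4 ± 263 CPM, led by Lum, and 1 of 10 (Postn) was lower in control IPs. GER markers, led by Epyc, summed to 9042 ± 1779.8, 12237 ± 456, 8084 ± 856 and 12242 ± 1039 CPM. The higher sum in control IPs does not show a general rise of GER markers, as their calls there went both ways. Igf2, a GER marker in the study, rose in control IPs by at least as much CPM as the sum did. The part of the cell types listed here in the lower collagen values of IPs was not tested.

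Further lists gave the following counts in control IPs against control inputs, where 11.8% of all genes were higher and 12.3% lower. Of 5 cartilage markers 3 were lower (Hapln1, Acan and Matn1), and their sums, led by Matn4, were 393 ± 49.6 CPM in control inputs and 397 ± 149 in control IPs. Of 6 bone markers 3 were lower (Dmp1, Phex and Alpl) and 1 higher (Sp7), with sums of 260.0 ± 50.4 and 163 ± 42.9 CPM led by Dmp1. Of 8 hair cell markers 7 were lower and 1 higher (Atoh1), with sums of 612 ± 69.2 and 216 ± 34.6 CPM led by Myo6. Of 7 neuron markers 3 were lower, and all 4 tested red blood cell markers were lower, with sums of 459 ± 113 and 95.4 ± 24.2 CPM led by Hbb-bs. Of 8 GER markers 2 were higher and 2 lower, and of 8 LGR5 supporting cell markers 2 were higher and 1 lower. The part of these cells in the collagen values was not tested either.

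**Figure D3:**
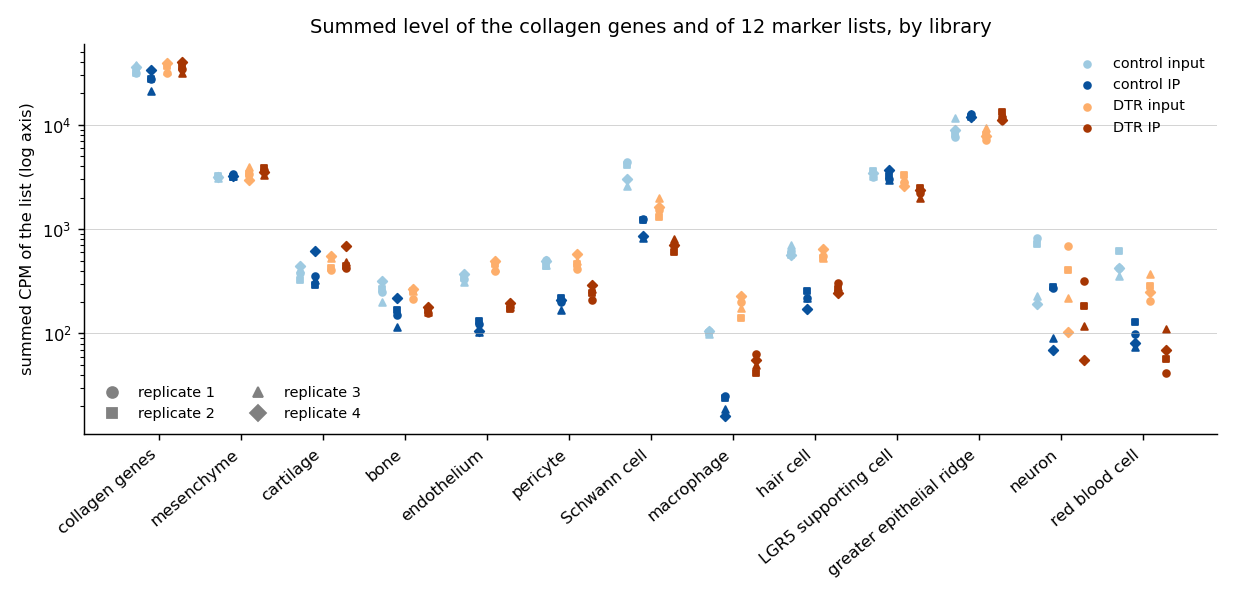
Summed CPM of the collagen genes and of 12 lists of cell type markers in each library (log axis), coloured by group, with the replicate as the symbol. Endothelial, pericyte, Schwann cell and macrophage sums are lower in IPs than in inputs, while mesenchyme sums stay between 2975 and 3927 CPM in all libraries.

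The comparison of DTR IP with control IP asks how collagen transcripts on tagged ribosomes differed after LGR5+ cells had been killed. Of 41 genes 10 were higher and 2 lower, beside 4.65% and 4.38% of all genes. The median log2 fold change was 0.476 over the collagen genes and -0.0043 over all genes, and 34 of 41 were above 0. Without control IP replicate 3 there were 7 higher, the median was 0.364 and 32 were above 0. By adjusted p alone 17 were higher, beside 8.44% of all genes. By the stricter criteria none of the 10 higher calls was kept and both lower calls were, beside 1.12% and 1.34% of all genes. In the inputs, DTR against control, 2 of 41 were higher and 3 lower, beside 4.76% and 3.51% of all genes, and the median was 0.079 beside -0.0205. The collagen median was 0.124 without DTR input replicate 3 and lay between 0.0181 and 0.0477 without control input replicate 1 or 2 or DTR input replicate 1, 2 or 4. Without control input replicate 4, 20 genes were above 0 and 21 below. With all libraries, the stricter criteria gave 1 higher and 2 lower in DTR inputs against control inputs, beside 1.34% and 1% of all genes. Control IPs and control inputs serve in the comparisons with the DTR samples and with each other, so these counts share libraries.

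Col12a1 led the genes that rose. Its control IPs read 20.6, 21.4, 10.7 and 8.11 CPM, all below the DTR IPs given above, and the log2 fold change was 1.12 ± 0.244 (adjusted p = 0.00337). Replicates 1 and 2 of the control IPs were higher than replicates 3 and 4. Its inputs rose as well, from 10.8, 11.9, 13.5 and 5.82 CPM in controls, by 0.784 ± 0.244 (adjusted p = 0.0417). That second call was lost without any of control input replicates 1, 2 or 4 or DTR input replicates 1, 2 or 3, with log2 fold changes of 0.545 to 0.844, without DTR IP replicate 2 (adjusted p = 0.0513) and in edgeR (adjusted p = 0.0758).

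Col6a3, the long chain of the beaded filaments of type VI collagen, had 16.4, 16.8, 15.7 and 11.7 CPM in control IPs and 37.6, 24.1, 35.4 and 28.7 CPM in DTR IPs. Its inputs read 30.4, 27.1, 29.6 and 20.3 CPM in controls and 29.0, 29.5, 24.1 and 33.5 CPM in DTR mice. The IPs were separate and the inputs overlapped, with log2 fold changes of 0.959 ± 0.152 (adjusted p = 0.000181) and 0.101 ± 0.152 (adjusted p = 0.768). Col6a1 and Col6a2, its partners, were at 0.465 and 0.496 in IPs and not called.

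The transmembrane collagen Col25a1, which takes part in motor innervation of muscle, had 17.0, 23.9, 15.3 and 12.5 CPM in control IPs and 35.0, 31.0, 33.3 and 33.3 CPM in DTR IPs. Its inputs were at 42.2, 37.9, 32.4 and 28.4 CPM in controls and 35.1, 42.5, 41.2 and 59.0 CPM in DTR mice. DTR IPs lay above all control IPs, whereas inputs overlapped, and the log2 fold change in IPs was 0.9 ± 0.164 (adjusted p = 0.000717). Col27a1, with the values above, was at 0.861 ± 0.223 in IPs (adjusted p = 0.0118) and at 0.432 in inputs, where the libraries overlapped.

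The type IV chains Col4a1 and Col4a2 rose in IPs by 0.796 ± 0.131 and 0.819 ± 0.133 (adjusted p = 0.00028 and 0.000239). Col4a2 read 171, 178, 144 and 169 CPM in control IPs and 243, 257, 319.7 and 314 CPM in DTR IPs. Its inputs were at 409.7, 353, 445 and 300.2 CPM in controls and 412, 425, 344 and 465 CPM in DTR mice. In inputs both genes overlapped, with log2 fold changes of 0.12 and 0.153. The chains Col4a3, Col4a4, Col4a5 and Col4a6 were not called in IPs, at -0.244 to 0.244. In inputs Col4a4, a chain of the mature basement membrane of the inner ear and kidney, fell from 12.9, 12.9, 11.5 and 17.4 CPM to 10.9, 9.37, 6.08 and 9.08 CPM, a log2 fold change of -0.646 ± 0.175 (adjusted p = 0.0186). That call was lost without control input replicate 4 (-0.519) and without DTR input replicate 3 (-0.502), and its IPs read 6.85, 9.52, 8.26 and 8.3 CPM in controls and 8.9, 9.79, 8.98 and 7.86 CPM in DTR mice.

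Endothelial markers changed beside these chains: in DTR IPs 3 of 8 were higher than in control IPs (Esam by 1.19, Pecam1 by 0.777 and Emcn by 0.652), and 3 of 9 macrophage markers were, beside 4.65% of all genes, while 0 of 7 pericyte markers were called by limma (4 had an unadjusted p under 0.05). In inputs 1 of 8 endothelial markers (Emcn) and 6 of 9 macrophage markers rose, beside 4.76% of all genes, and macrophage sums went from 20.9 ± 4.32 to 52.6 ± 8.96 CPM in IPs and from 103 ± 3.31 to 185 ± 36.4 CPM in inputs. Their part in the rise of Col4a1 and Col4a2 was not tested.

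The other genes that rose in DTR IPs were Col14a1 (0.675), Col1a2 (0.649), Col5a2 (0.642) and Col8a1 (0.589), which encodes a short chain collagen of vessel walls and basement membranes. Col1a2 read 2509.8, 2793, 2387 and 2538 CPM in DTR IPs and 2493, 3079.9, 2231 and 2539 CPM in DTR inputs. All 4 DTR IPs lay above the control IPs of Col1a2. Without control IP replicate 3 the folds of Col1a2, Col5a2 and Col8a1 fell under 1.5 (log2 fold changes of 0.551, 0.537 and 0.517), as they did in edgeR (0.582, 0.549 and 0.51) and DESeq2 (0.583, 0.551 and 0.51). With the length and GC correction those of Col1a2 (0.551) and Col8a1 (0.578) did so too. Col8a1 was also lost without control IP replicate 2 (0.529) or DTR IP replicate 4 (0.502), and Col5a2 without DTR IP replicate 3 (0.562). Of 10 mesenchyme markers all had log2 fold changes above 0 in this comparison, with a median of 0.377, and 2 were called higher (Postn by 0.886 and Tbx18 by 0.67), beside 4.65% of all genes. Their part was not tested.

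The 2 collagen genes that fell in DTR IPs also fell in DTR inputs. Col13a1, a transmembrane collagen of cell adhesion sites, read 9.98, 12.4, 11.6 and 13.5 CPM in control inputs and 15.3, 20.3, 14.02 and 26.0 CPM in control IPs. In DTR mice it read 6.91, 5.77, 4.01 and 6.03 CPM in inputs and 5.91, 3.92, 3.25 and 8.02 CPM in IPs. Every DTR library was below every control library, and it fell by 1.83 ± 0.246 in IPs and 1.09 ± 0.246 in inputs (adjusted p = 3.11e-05 and 0.00532).

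Col22a1, a FACIT collagen of tissue junctions, read 4.6, 3.89, 7.62 and 4.94 CPM in control inputs and 2.27, 1.95, 1.82 and 2.13 CPM in control IPs. In DTR mice it read 2.19, 2.35, 1.02 and 1.22 CPM in inputs and 0.739, 0.641, 0.364 and 0.493 CPM in IPs, where it rested on at most 23 reads a library. The 4 groups formed steps, with control inputs highest and DTR IPs lowest, and only control IPs and DTR inputs overlapped. It fell by 1.48 in both IPs and inputs (SE 0.231, adjusted p = 0.000146 and 0.000174). The LGR5 supporting cell markers fell beside both genes, 6 of 8 in IPs and 6 of 8 in inputs, beside 4.38% and 3.51% of all genes. Their sums, led by Sparcl1, were 3241 ± 333 CPM in control IPs and 2251 ± 215 CPM in DTR IPs, and the sums in inputs overlapped, at 3127 to 3627 CPM in controls and 2604 to 3295 CPM in DTR mice. Their part was not tested.

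Col20a1, a FACIT collagen of unsettled role, rose most in inputs. It read 0.381, 1.27, 0.411 and 1.32 CPM in control inputs and 9.16, 6.47, 3.19 and 6.7 CPM in DTR inputs, a log2 fold change of 2.23 ± 0.404 (adjusted p = 0.000759). Its IPs read 1.38, 1.08, 0.0882 and 0.0654 CPM in controls and 4.66, 3.2, 2.09 and 1.28 CPM in DTR mice, where control replicate 1 was above DTR replicate 4 and no call was made (1.53 ± 0.404, adjusted p = 0.0135). Replicates 1 and 2 were above replicates 3 and 4 in the IPs of both genotypes, as were the neuron marker sums, at 271, 280.0, 89.7 and 69.1 CPM in control IPs and 318, 184, 118 and 55.9 CPM in DTR IPs. In inputs the neuron sums were 813, 727, 227 and 190 CPM in controls and 688, 410, 221 and 104 CPM in DTR mice. Col20a1 did not have that order there, with replicate 4 the highest control input and above replicate 2 in DTR inputs. The part of neurons was not tested. Col10a1, the collagen of hypertrophic cartilage, was too low to test: it had at most 2 reads in any control input, and 1.45, 0.855, 0.409 and 0.883 CPM in DTR inputs. It overlaps Nt5dc1 on the other strand, and reads from the 2 genes cannot be told apart here.

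**Figure D4:**
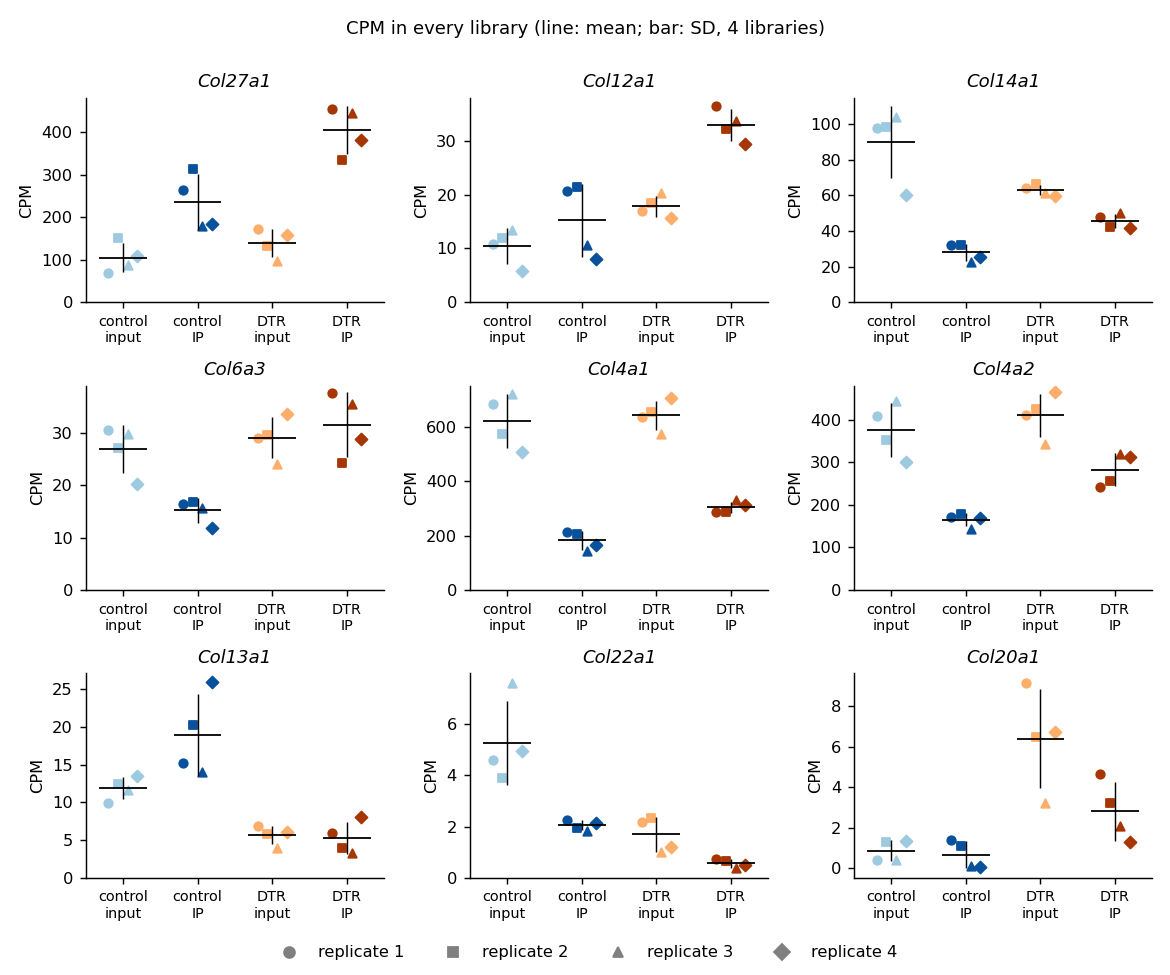
CPM of 9 collagen genes in every library, by group; symbols mark the replicate, horizontal lines the mean and vertical lines the SD of 4 libraries. DTR IPs of Col4a1, Col4a2 and Col6a3 lie above the control IPs while their inputs overlap, and every DTR library of Col13a1 lies below every control library.

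Whether the change after damage differed between IP and input was tested as an interaction. None of the 41 genes passed with limma, beside 0% of all genes higher and 0.0118% lower, and 15 of 41 had an unadjusted p under 0.05, or 36.6% beside 5.12% of all genes. The count was 0 with edgeR, which called 0% of all genes in either direction, and 2 higher with DESeq2, beside 0.141% of all genes higher and 0.147% lower. The estimate was positive for 35 of 41 genes, or 85.4% beside 49.1% of all genes, with a median of 0.429 beside -0.0051, and without control IP replicate 3 for 31 with a median of 0.284. Col14a1 had the highest estimate, 1.15 ± 0.205 (adjusted p = 0.0759). It passed with the replicate number as a block (adjusted p = 0.0228), with DESeq2 (adjusted p = 0.00104) and without control input replicate 4 (1.33, adjusted p = 0.003), whose 60.0 CPM lay far under the other control inputs. DESeq2 also passed Col6a3 (0.904, adjusted p = 0.045). The estimate was also positive for 8 of 8 endothelial markers (median 0.403), 7 of 10 mesenchyme markers (0.234) and 6 of 7 pericyte markers (0.187), and their part was not tested. For Col4a1 and Col4a2 the estimates were 0.676 ± 0.186 and 0.666 ± 0.188 (adjusted p = 0.401 and 0.439).

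Across the 4 comparisons of pairs of groups 13 of 41 genes were called in none: Col5a1, Col11a1, Col11a2 and Col24a1 of the fibrillar class, the 3 type IX chains, Col4a6, Col6a6, Col7a1 of the anchoring fibrils of skin, Col8a2, Col17a1 of hemidesmosomes, and Col26a1. With the replicate number as a block Col17a1 was called higher in DTR inputs (0.62, adjusted p = 0.0425). A further 7 were called once, 16 in 2 comparisons and 4 in 3. Col22a1 was called in all 4, lower each time. These counts were not set beside those of all genes, so whether they are particular to the collagens was not tested.

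Chain ratios within a fibril type are given as a description. Col11a2 exceeded Col11a1 in CPM by 1.92 ± 0.488 times in control inputs and 3.8 ± 1.32 times in control IPs, and by 2.17 ± 0.288 and 4.33 ± 0.782 times in DTR inputs and IPs. Its own CPM was 1127 ± 236 in control inputs, 1453 ± 498 in control IPs, 1308 ± 320.2 in DTR inputs and 2247 ± 259 in DTR IPs. Col11a2, a chain of type XI collagen, was not called in DTR IPs against DTR inputs on the quantile scale (0.77, adjusted p = 0.0209, libraries overlapping), but was called higher on CPM without that step (0.803, adjusted p = 0.0103) and in edgeR (0.778, adjusted p = 0.00925). The ratio of Col9a3 to Col9a2, both of type IX collagen, was 1.13 ± 0.0976 in control inputs and 1.21 ± 0.0643 in control IPs, and 1.53 ± 0.0908 and 1.45 ± 0.183 in DTR inputs and IPs. In inputs these 2 sets of ratios did not overlap, at 1.04 to 1.26 and 1.4 to 1.61.

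Genes that make, bind or sense collagen were read beside the collagens. A list of 38 genes for procollagen processing held enzymes, chaperones and other genes such as Sparc, its most abundant member. In control IPs 2 were higher and 3 lower, or 5.26% and 7.89% beside 11.8% and 12.3% of all genes. The median log2 fold change of the list was -0.122. Plod2, which hydroxylates lysines for cross-links, was higher in IPs of both genotypes (0.749 and 0.781), and P3h2, a prolyl hydroxylase, was lower (-0.95 and -1.0). Lox, a cross-linking oxidase, was lower in DTR IPs against DTR inputs (-0.866). After damage Pcolce, which speeds the removal of the procollagen C-propeptide, was the 1 gene of the list higher in DTR IPs (0.741), while P4ha3 (-1.16), Tll1 (-0.86) and Loxl2 (-0.643) were lower, and the median was 0.0182. These calls were 2.63% and 7.89% of the list, beside 4.65% and 4.38% of all genes. In inputs Loxl4 was higher (1.28) and Tll1 (-1.38) and P4ha3 (-0.616) were lower, or 2.63% and 5.26% beside 4.76% and 3.51% of all genes.

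Of 9 collagen receptors tested, 4 were lower in control IPs: Itga1 (-1.35), Itga11 (-1.18), Itgb1 (-0.929) and Mrc2 (-0.791), which encode 3 integrin chains and an uptake receptor, beside 12.3% of all genes. Itga10, an integrin chain of chondrocytes that binds type II collagen, was higher in DTR IPs against control IPs (0.609), and Lair1, an inhibitory receptor of immune cells, was lower (-1.21), so that 1 of 9 was called each way, beside 4.65% and 4.38% of all genes. None of the 9 was called by limma in DTR inputs against control inputs, where 1 had an unadjusted p under 0.05. Of 14 collagen-binding matrix proteins tested, Ogn (0.927) and Tgfbi (0.74) were higher in DTR IPs against control IPs, beside 4.65% of all genes. In inputs Ogn (0.792) and Matn1 (0.633) were higher and Kera (-1.16) was lower, beside 4.76% and 3.51% of all genes. Matn2 (-2.1), Matn1 (-0.906), Prelp (-0.771) and Tgfbi (-0.766) were lower in control IPs against inputs, beside 12.3% of all genes.

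The tectorial membrane also holds glycoproteins that are not collagens. In DTR IPs against control IPs 4 of 5 tested were lower: Otog (-1.56), Tecta (-0.882), Tectb (-0.679) and Otogl (-0.671), beside 4.38% of all genes, while Otoa was at -0.0388. In inputs Otog (-1.52) and Tecta (-1.1) were lower, beside 3.51% of all genes, and Otoa was at 0.46. The 6 chains of types II, IX and XI were between -0.121 and 0.649 in the IP comparison and between -0.256 and 0.241 in inputs, and none of them was called. Col9a1 gave the lowest IP value and changed sign with the scale, from -0.121 on the quantile scale to 0.288 on CPM without that step. That the glycoproteins and these chains differed was not tested.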

How the data were processed

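Reads were from SMART-Seq v4 libraries. The study's methods name HISAT2 and HTSeq on GRCm38, while the labels list TopHat and GRCm38; the strand setting is not given in the sources used here. The authors deposited CPM values, read counts per gene scaled to the same total in each library, for 50316 genes, of which 2587 had no value. Whole reads could be recovered for at least 99.996% of values in every library (tolerance 0.01 reads). CPM was quantile normalized, 0.5 was added, and log2 values were fitted with limma 3.58.1 (R 4.3.3) over all 16 libraries with 4 group means and Benjamini-Hochberg adjustment over 16994 genes, those at 0.5 CPM or more in all replicates of a group. A call needed an adjusted p under 0.05, a fold above 1.5 and groups without overlap; an interaction needed the adjusted p alone. edgeR 4.0.16 and DESeq2 1.42.0 were run on the recovered reads. The tests were tested on simulated data, the outcome of which is not given here.

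The collagen genes and all gene lists were chosen with earlier results of these data known. Full values were given for the 4 called collagen genes with the largest change in each direction of a comparison and the 6 most abundant per kb, and up to 4 called genes a direction from other lists. Genes such as Dcn, Lum, Matn1, Matn4, Comp, Tecta and Otoa are on more than one list. Positions are from GENCODE for GRCm38. The fourth replicate of the labels carries the number 6 in the deposited data. Input and IP of a replicate came from one pool, and same-numbered libraries deviated together in the 4 pairs of groups compared (lowest correlation 0.288), so replicate numbers were used as a block in an alternative. Errors of levels are SDs over 4 pools and those of log2 fold changes standard errors of the fit, and 3 reads were taken as the floor for counting error only.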

Additional observations from a re-analysis of the deposited data

Results flagged for a closer look

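Among 80 sets of 4 libraries (20 collagen genes in 4 groups) 4 held a library far from the other 3, judged by its gap to the nearest of them over the whole range. Chance alone flags about 1 in 20 such sets. Col14a1 was at 59.95 CPM in control input replicate 4 and at 97.91 to 103.7 CPM in the other control inputs. Col19a1 was at 0.9291 CPM in control input replicate 2, against 0.691 to 0.7254 CPM, and at 3.168 CPM in DTR IP replicate 2, against 1.545 to 1.59 CPM. Col28a1 was at 4.52 CPM in DTR input replicate 1, against 1.77 to 2.193 CPM.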

How the results depend on the processing

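The 67 calls of collagen genes were recomputed under alternative settings, which made 2006 recomputed calls: 1892 gave the same call, 114 the same direction without the call, and 0 the opposite direction. These totals are not a measure of robustness. Adjusted p alone only loosens the rule, so all 67 were bound to stay. Many fits also left out a library from outside the groups compared. The study's criteria, which tighten the rule, kept 22 calls and lost 45. Genes higher in control IPs against inputs numbered 2 in place of 1 with a pseudocount of 1, a 2 CPM filter, the groups compared alone, the length and GC correction, edgeR or DESeq2. With adjusted p alone, 18 genes were lower in DTR IPs against inputs, 17 higher in DTR IPs against control IPs, and 4 higher and 31 lower over both genotypes. By the criteria the study set for DTR IPs against control IPs, here applied to all pairs (a log2 fold change of at least 1, and a lowest value of the higher group over 1.5 times the highest of the lower group) 0 were higher and 9 lower in control IPs against inputs, 1 higher and 3 lower in DTR IPs against inputs, 0 higher and 2 lower in DTR IPs against control IPs, 1 higher and 2 lower in DTR inputs, and 0 higher and 4 lower over both genotypes. The length and GC correction gave 2 higher over both genotypes, and DESeq2 gave 2 positive interactions.

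With the replicate block 2 genes were higher in control IPs against inputs (Col13a1 was added), 3 higher in DTR inputs (Col17a1 was added, adjusted p = 0.0425) and 1 interaction passed (Col14a1, adjusted p = 0.0228). Of all 16994 genes the block gave 2026 higher in control IPs against inputs and 850 higher in DTR inputs. Over all genes 15 positive and 25 negative interactions passed with the block, beside 0 and 2 without it. With the length and GC correction together with the block the counts were 2 higher in control IPs, 1 interaction and 2 higher over both genotypes. Over all 16933 genes in that fit 2060 were higher in control IPs and 1444 over both genotypes, and 31 positive and 42 negative interactions passed. The block alone changed no other collagen call.

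Leaving out each replicate in turn gave 1 to 2 higher and 19 to 24 lower in control IPs against inputs, 3 to 4 and 10 to 14 in DTR IPs against inputs, 7 to 13 and 2 to 2 in DTR IPs against control IPs, and 1 to 3 and 2 to 3 in inputs. The same fits tested 17021 to 17113 genes, with 1901 to 2201 higher and 2009 to 2181 lower in control IPs against inputs. The ranges over all genes were 1874 to 2130 and 1652 to 1989 in DTR IPs against inputs. They were 778 to 913 and 725 to 856 in DTR IPs against control IPs, and 716 to 860 and 538 to 650 in inputs. Interactions ranged from 0 to 1 higher and 0 to 0 lower, and the comparison over both genotypes from 1 to 2 higher and 11 to 12 lower. Over all genes these ranges were 0 to 2 and 0 to 4 for interactions, and 1380 to 1488 and 1184 to 1294 over both genotypes. Col10a1, Col6a4 and Col6a5 were too low to test, and Col19a1, Col22a1 and Col28a1 rested on few reads in some libraries.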
